A study of Mus musculus with 12 samples.

Results

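The genes followed here, 9 in number, mark microglia or encode the complement protein C1q: Cx3cr1, P2ry12, Tmem119, Csf1r, Aif1, Trem2, C1qa, C1qb and C1qc. They were taken by name from a table of 55421 genes, in which each of the 9 symbols matched 1 Ensembl identifier, and all 9 passed the filter on low counts that 20015 genes passed. The libraries were polyA RNA-seq of prefrontal cortex from wild-type male C57BL/6 mice aged 10 to 12 weeks. Every mouse, saline controls included, had been fear conditioned with 3 pairings of a tone and a 0.7 mA foot shock. Dexmedetomidine, a sedative that activates alpha2 adrenergic receptors (labelled Dex), was injected intraperitoneally at 40 µg/kg in 10 ml/kg, and control mice received the same volume of saline. Tissue was collected 2 h after training from prelimbic (PL) or infralimbic (IL) cortex, which gave 4 groups of 3 libraries, saline and Dex in each region. A batch tag (1, 2 or 3) on each library repeats the sample number in its title. Nothing in the labels states whether the samples of a group were separate mice or whether PL and IL came from one mouse, so the spread that the p-values rest on may be technical. The extraction protocol names PL tissue for all libraries, while 6 titles name IL, and the titles were followed here.

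Microglia are the resident macrophages of the brain. They sense fractalkine from neurons through Cx3cr1, nucleotides from damaged or active cells through P2ry12, and the survival factors Csf1 and Il34 through Csf1r, while Trem2 signals through the adaptor Tyrobp on contact with lipids. C1q, assembled from the products of C1qa, C1qb and C1qc, starts the classical complement cascade and can tag synapses for removal, and microglia are its main source in the brain.

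Library totals ran from 5419187 to 16530596 counts, so that the rarest of the 9 genes, Aif1, rested on 15 to 49 counts per library and the most abundant, Csf1r, on 380 to 1421. Levels below are CPM, counts scaled to a common library size after adjustment by the trimmed mean of M values (TMM). Libraries PL saline 1 and PL saline 2 stood apart in how level depended on GC content: the slope of log2 level on GC was -0.251 and -0.305 per 10% GC in them and lay between -0.0704 and 0.190 in the other 10. The tissue label reads only brain. Markers of neurons summed to between 3856 and 6455 CPM and the 9 microglia and C1q genes to between 184.3 and 239.5 CPM. The lists of 3 monocyte, 5 neutrophil and 5 lymphocyte markers each summed to at most 1.55 CPM in any library, and none of these genes passed the filter. In tissue RNA of this kind, fewer microglia and less RNA per microglial cell cannot be told apart.

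The genes differ in base composition, which bears on the comparisons below. Over all tested genes the median GC of the longest transcript was 48.4% (quartiles 43.7% and 53.5%). P2ry12 lay below the lower quartile at 38.6%. Cx3cr1, Trem2 and Aif1 lay near the middle at 50.3%, 51.0% and 51.4%, and Csf1r (54.5%), C1qb (57.4%), C1qc (57.5%), Tmem119 (59.1%) and C1qa (59.5%) lay above the upper quartile. The central 90 coding bases of 5 of the genes are shown as examples. They are from GENCODE M21 on GRCm38, 5′ to 3′ on the coding strand, with each G and C in capitals. The central stretch was chosen after the first 90 coding bases of P2ry12 were seen to be richer in GC than the rest of that gene.
P2ry12: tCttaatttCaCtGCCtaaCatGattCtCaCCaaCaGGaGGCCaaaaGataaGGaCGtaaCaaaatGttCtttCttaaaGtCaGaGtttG
Tmem119: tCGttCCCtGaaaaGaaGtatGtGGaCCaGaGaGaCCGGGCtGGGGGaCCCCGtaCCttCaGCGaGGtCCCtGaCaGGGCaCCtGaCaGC
C1qa: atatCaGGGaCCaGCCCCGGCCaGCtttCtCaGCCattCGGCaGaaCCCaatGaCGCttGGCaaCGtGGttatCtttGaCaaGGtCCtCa
C1qb: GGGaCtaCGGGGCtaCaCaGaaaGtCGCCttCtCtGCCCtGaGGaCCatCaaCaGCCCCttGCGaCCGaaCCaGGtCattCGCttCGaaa
C1qc: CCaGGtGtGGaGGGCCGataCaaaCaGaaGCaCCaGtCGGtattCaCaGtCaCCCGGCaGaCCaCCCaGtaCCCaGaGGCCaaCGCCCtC
The P2ry12 stretch (chr3:59217688-59217777, minus strand, in exon 4) holds 36.7% GC. Those of Tmem119 (chr5:113795274-113795363, minus strand, exon 2) and C1qc (chr4:136890370-136890459, minus strand, exon 3) hold 61.1% each. The C1qa stretch (chr4:136896480-136896569, minus strand, exon 3) holds 54.4% and the C1qb stretch (chr4:136880627-136880716, minus strand, exon 3) 57.8%. The central 90 coding bases of Cx3cr1, not printed, hold 56.7%, above those of C1qa. Over the whole coding sequence P2ry12 holds 43.9%, Cx3cr1 54.6%, C1qb 58.5%, C1qa 58.8%, C1qc 61.9% and Tmem119 62.4%. The contrast of P2ry12 with the other printed genes is thus smaller there than in the stretches.

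The C1q genes lie side by side on the minus strand of chromosome 4 within 18675 bases of GRCm38. C1qb (ENSMUSG00000036905) is at chr4:136880129-136886187, C1qc (ENSMUSG00000036896) at chr4:136889804-136893065 and C1qa (ENSMUSG00000036887) at chr4:136895917-136898803. Of the 9 genes, 6 had an entry in the RefSeq promoter table (GRCm38.p6). In the 250 bases before the start of 4 of these 6, a search of both strands found GAGGAA, the core of the site of the myeloid factor PU.1, which Spi1 encodes, or its reverse complement TTCCTC. The same letters were in 23.3% of the 32851 promoters in that table, and a match is a description of sequence, not evidence of binding. The matches are shown in capitals with up to 30 bases on each side, in the direction of the gene.
C1qb: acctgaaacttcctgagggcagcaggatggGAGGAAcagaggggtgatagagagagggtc
C1qc: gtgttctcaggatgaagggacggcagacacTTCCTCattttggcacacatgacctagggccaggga
Aif1: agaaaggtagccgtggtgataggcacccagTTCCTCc
Trem2: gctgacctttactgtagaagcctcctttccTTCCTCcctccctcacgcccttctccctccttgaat
These windows are chr4:136886201-136886260 for C1qb, chr4:136893072-136893137 for C1qc and chr17:35176053-35176089 for Aif1, all on the minus strand. The Trem2 window is chr17:48346331-48346396 on the plus strand. Starts are those of the promoter table and can differ from those of the counted genes. The Aif1 match lies inside the gene as counted, which begins at chr17:35176068 on the minus strand.

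Per length, C1qb and C1qa were the most abundant of the 9. C1qb averaged 19.1 ± 3.24 CPM per kb of exon and C1qa 18.5 ± 3.86 (SD over 12 libraries), and C1qb was the higher of these neighbours in 8 of 12 libraries only. Csf1r followed at 13.2 ± 1.51 CPM per kb and lay below C1qa in 12 of 12 libraries, although their ranges overlapped. P2ry12 averaged 10.5 ± 2.34, Cx3cr1 8.21 ± 0.957, C1qc 7.02 ± 1.14 and Tmem119 5.85 ± 1.11 CPM per kb. Aif1 (1.79 ± 0.434) and Trem2 (1.24 ± 0.294) were lowest, and the step from Tmem119 to Aif1 was the one place in the order where the ranges of neighbours did not overlap. C1qb stood at the 88.4th percentile of tested genes per length and Trem2 at the 20.4th. Per kb, the 3 C1q subunits did not have equal levels: the ratio of C1qa to C1qb had a median of 0.946 (range 0.701 to 1.33), whereas C1qb exceeded C1qc by a ratio of 2.03 to 3.38 in each of the 12 libraries. These values depend on the exon length assigned to each gene, which was 4946 bases for Trem2 and 1532 for Aif1. Without division by length, Trem2 averaged 6.15 CPM and Aif1 2.745 CPM. The length was 1931 bases for C1qc and 1088 for C1qb, although their coding sequences hold 738 and 759 bases. Undivided, C1qc averaged 13.55 CPM and C1qb 20.8 CPM.

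**Figure D1:**
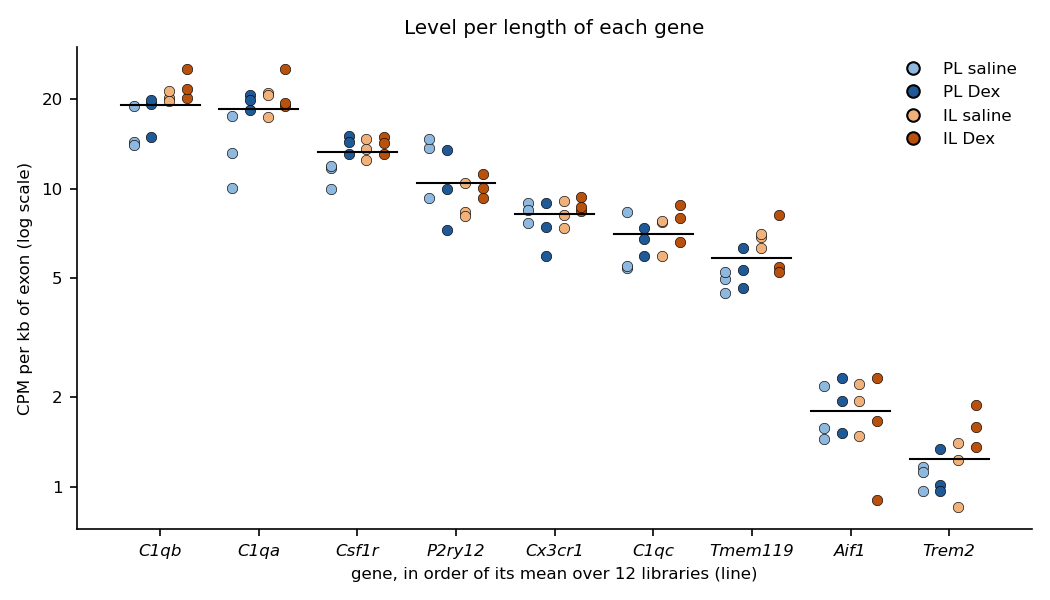
CPM per kb of exon (log scale) for each gene in each of the 12 libraries, coloured by group, with the mean over libraries as a line. C1qb and C1qa lead at 19.1 and 18.5 CPM per kb, and Aif1 and Trem2 lie apart at the bottom.

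Among the receptors and surface proteins, Cx3cr1 (ENSMUSG00000052336, chr9:119901616-120069879, minus strand) was the steadiest together with Csf1r, with coefficients of variation over 12 libraries of 11.7% and 11.4%. In PL, Cx3cr1 measured 34.6, 40.3 and 38.2 CPM with saline and 40.3, 26.9 and 33.6 CPM with Dex. In IL it measured 33.2, 40.8 and 36.7 CPM with saline and 37.8, 42.2 and 39.2 CPM with Dex. All 4 groups overlapped, and PL Dex 2 gave the lowest value. Reads were counted without strand, and 78 exonic bases of this gene are shared with other genes.

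P2ry12, the ADP receptor that guides microglial processes (ENSMUSG00000036353, chr3:59216272-59262871, minus strand, within Med12l on the other strand), spread more. With saline it measured 34.8, 37.2 and 23.7 CPM in PL and 26.5, 21.3 and 20.6 CPM in IL. With Dex it measured 25.3, 18.4 and 34.2 CPM in PL and 28.5, 25.7 and 23.6 CPM in IL. PL saline 1 and PL saline 2 were among its highest libraries, in contrast to the C1q genes, and no pair of compared groups was separated.

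Tmem119, a surface protein used to tell microglia from other macrophages (ENSMUSG00000054675, chr5:113793729-113800516, minus strand), measured 11.5, 10.3 and 12.2 CPM with saline in PL and 15.9, 14.7 and 16.4 CPM with saline in IL. With Dex it measured 10.8, 12.3 and 14.6 CPM in PL and 12.7, 12.2 and 18.9 CPM in IL. The saline groups of the 2 regions did not overlap, PL being lower, while the Dex groups did. Csf1r (ENSMUSG00000024621), the receptor on which microglia depend for survival, measured 57.7, 67.6 and 69.0 CPM with saline in PL, where it reached 86.5, 82.9 and 75.5 CPM with Dex. In IL it measured 72.1, 78.1 and 84.6 CPM with saline and 75.5, 85.8 and 81.9 CPM with Dex. All 3 PL saline libraries lay below the other 9, and the share of all genes that did so was not counted. Csf1r shares 873 exonic bases with other genes, among them Hmgxb3 on the other strand, and reads from them cannot be told apart without strand.

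Aif1, which encodes the calcium-binding protein Iba1 used to stain microglia (ENSMUSG00000024397, chr17:35170991-35176068, minus strand), ranged from 1.38 CPM in IL Dex 3 to 3.56 CPM in IL Dex 1, so a single group held both extremes. Trem2 (ENSMUSG00000023992, chr17:48346401-48354147, plus strand) measured 5.77, 4.80 and 5.56 CPM with saline in PL, against 5.03, 4.79 and 6.64 CPM with Dex there. In IL it measured 4.23, 6.09 and 6.96 CPM with saline and 7.84, 6.75 and 9.32 CPM with Dex. The IL Dex libraries were high for Trem2, and 1 IL saline library reached into their range.

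The C1q subunits shared low values in PL saline 1 and PL saline 2. C1qa measured 10.5, 13.7 and 18.2 CPM in PL saline, against 19.1, 21.5 and 20.6 CPM with Dex there, and in IL 18.1, 21.8 and 21.4 CPM with saline and 19.6, 20.1 and 26.2 CPM with Dex. C1qb measured 15.6, 15.2 and 20.5 CPM in PL saline, against 20.95, 21.5 and 16.3 CPM with Dex there, and in IL 22.0, 21.3 and 23.0 CPM with saline and 21.9, 27.3 and 23.5 CPM with Dex. C1qc measured 10.5, 10.7 and 16.1 CPM in PL saline, against 13.1, 11.5 and 14.2 CPM with Dex there, and in IL 11.5, 14.9 and 15.1 CPM with saline and 12.8, 17.0 and 15.4 CPM with Dex. PL saline 3 was the highest library of its group for each subunit, by the widest margin for C1qc.

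**Figure D2:**
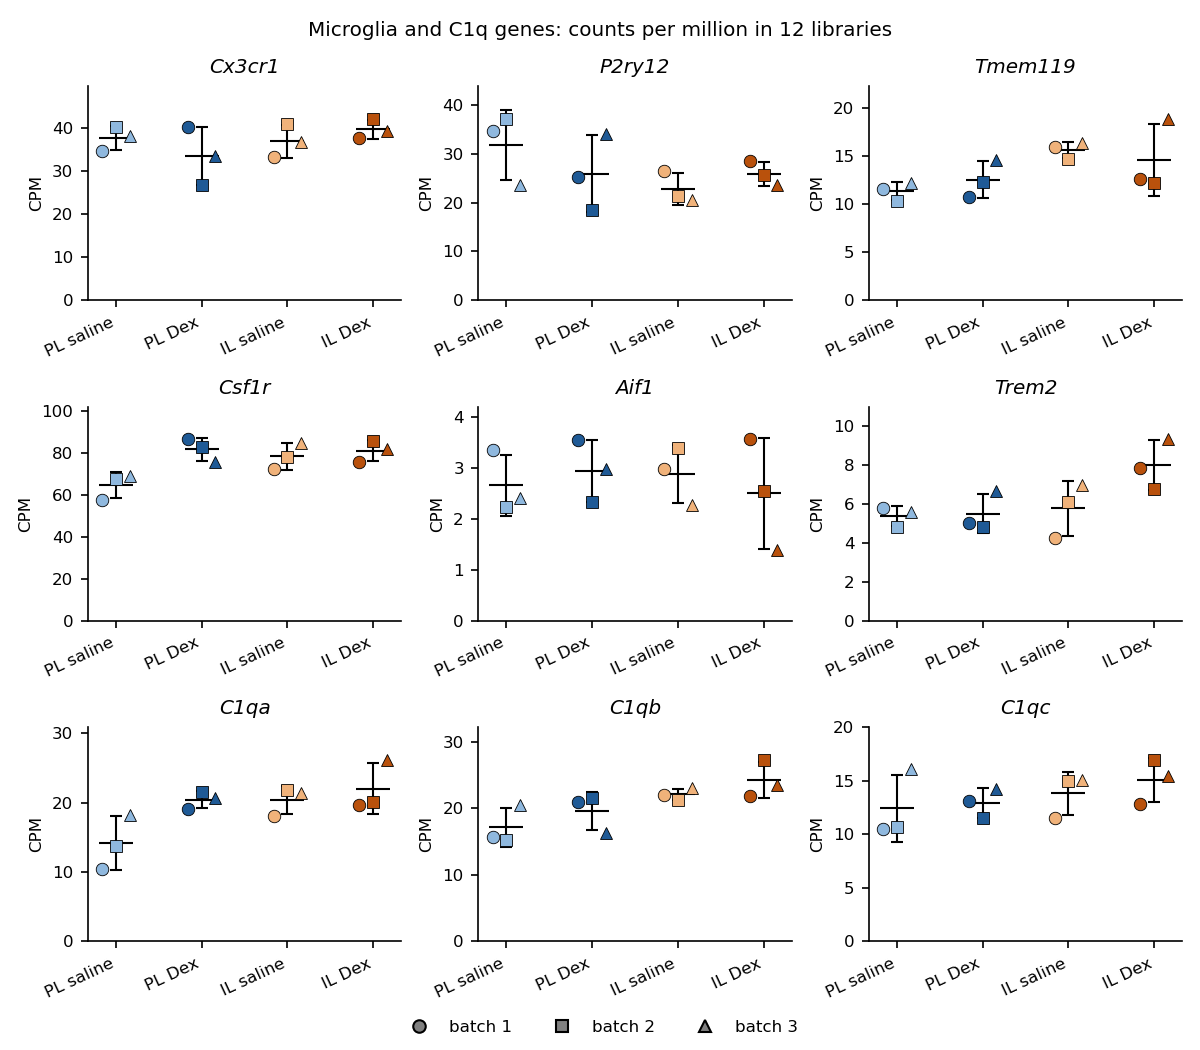
CPM of each gene (vertical axes start at 0) in the 3 libraries of each group, with the batch number as the symbol and the group mean ± SD as bars. The 3 PL saline libraries lie below all 3 PL Dex libraries for Csf1r and C1qa, and the groups overlap for the other 7 genes in that comparison.

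Dex against saline in PL addressed whether the drug, given after training, changed these genes in prelimbic cortex. None of the 9 passed edgeR's quasi-likelihood test with Benjamini-Hochberg adjustment over 20015 genes at a threshold of 0.05. In the same comparison 0.02% of all tested genes were called. DESeq2 also called 0 of the 9. At an unadjusted p under 0.05, 2 of the 9 were past the threshold, against 13.9% of all genes. These were Csf1r, at 64.7 ± 6.14 CPM with saline and 81.6 ± 5.62 with Dex (SD, n = 3 libraries each), and C1qa, at 14.1 ± 3.90 and 20.4 ± 1.23 CPM. Csf1r had a log2 fold change of 0.33 with a 95% interval of 0.10 to 0.56 (SE 0.110, edgeR adjusted p = 0.229). C1qa had one of 0.52 with a 95% interval of 0.13 to 0.90 (SE 0.185, edgeR adjusted p = 0.249). For both, the groups did not overlap, which held for 7.57% of all genes in that direction. That separation by itself makes them higher in 3 of 3 same-batch pairs. Without PL Dex 3, Csf1r passed the test (log2 fold change 0.39, edgeR adjusted p = 0.0361), and that omission also raised the count over all genes from 4 to 1484.

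The other 7 genes had log2 fold changes in PL between -0.29 for P2ry12 (95% interval -0.71 to 0.12) and 0.19 for C1qb (95% interval -0.15 to 0.53). Cx3cr1 had -0.17 and C1qc 0.06. Over the 9 genes the median was 0.15, beside -0.0025 over all genes, and 7 of 9 values were positive, beside 49.7% of all genes. In this comparison the fold change of genes at large varied with GC: genes within 1% GC of C1qa had a median log2 fold change of 0.30 and those within 1% of Csf1r one of 0.19, whereas those near P2ry12 had -0.28. With a GC correction in each library the median of the 9 became -0.030, beside 0.0098 over all genes. Csf1r became 0.17 (edgeR adjusted p = 0.879) and C1qa 0.28 (edgeR adjusted p = 0.885). What set the GC slopes of the libraries was not tested.

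In IL, where the GC slopes ran from 0.0282 to 0.133 with saline and from -0.0093 to 0.190 with Dex, none of the 9 genes passed the test for Dex either. 0 of 9 were called by edgeR and 0 by DESeq2, 0 of 9 had an unadjusted p under 0.05, and of all genes 0.0% were called and 1.06% had an unadjusted p under 0.05. Trem2 had the largest difference, from 5.76 ± 1.40 CPM with saline to 7.97 ± 1.29 with Dex (SD, n = 3 each), a log2 fold change of 0.47 with a 95% interval of -0.025 to 0.96 (SE 0.236, edgeR unadjusted p = 0.0615). It was higher in 3 of 3 same-batch pairs. The C1q subunits had log2 fold changes of 0.12 (C1qa), 0.13 (C1qb) and 0.12 (C1qc), each smaller than its standard error of 0.175, 0.154 and 0.189. Csf1r had 0.05 (95% interval -0.18 to 0.28). The median over the 9 was 0.12, beside 0.0063 over all genes.

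Whether the drug's difference itself varied between the regions was tested as an interaction, PL minus IL. None of the 9 passed (edgeR, smallest adjusted p = 0.718 for Csf1r), 0 of 9 had an unadjusted p under 0.05 against 6.73% of all genes, 0.0% of all genes were called, and DESeq2 called 0 of the 9. The interaction was 0.28 for Csf1r (95% interval -0.041 to 0.60), 0.40 for C1qa (95% interval -0.13 to 0.93) and -0.43 for Trem2 (95% interval -1.16 to 0.30). A difference of the drug's response between PL and IL was therefore not shown for any of the 9. Averaged over both regions, Dex against saline again called 0 of 9 by edgeR and by DESeq2, beside 0.005% of all genes, and 2 of 9 had an unadjusted p under 0.05 against 6.8% of all genes.

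**Figure D3:**
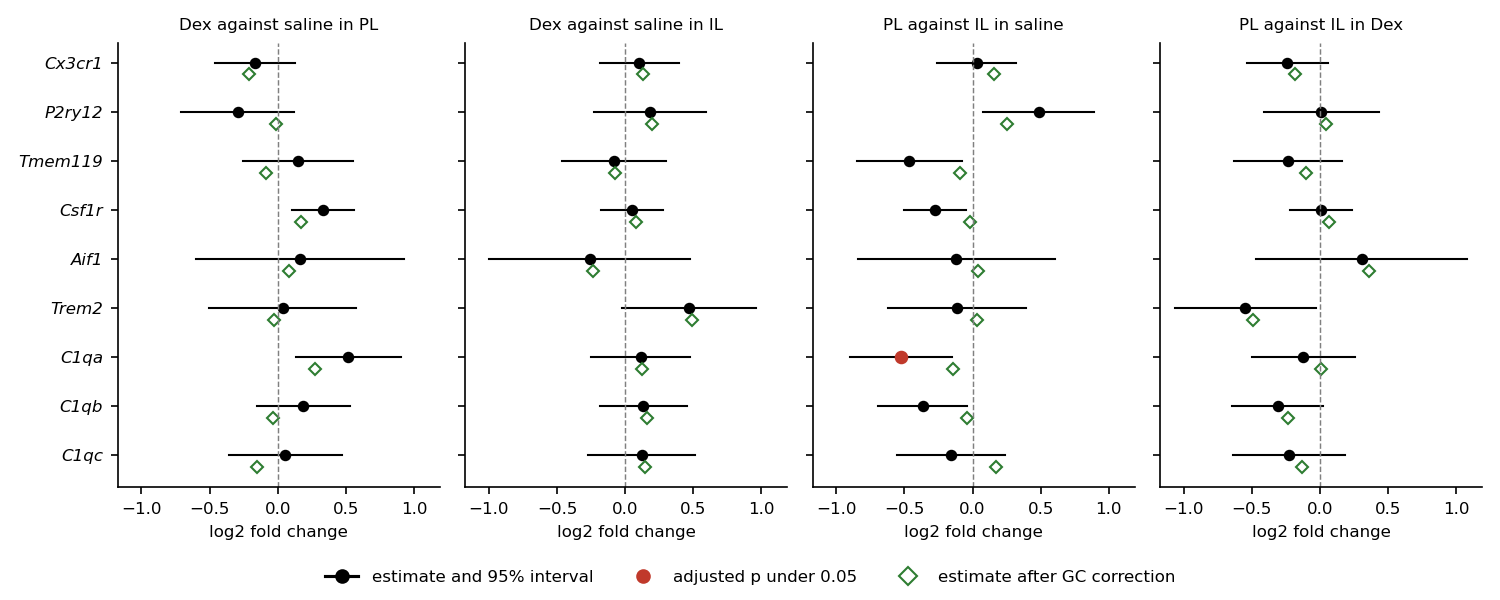
Log2 fold change of each gene in 4 comparisons: filled circles are edgeR estimates with 95% intervals, red where the adjusted p is under 0.05, and open diamonds are the estimates after a GC correction of each library. C1qa in PL against IL with saline (-0.52) is the single red point, and its diamond lies at -0.14.

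Between the regions with saline, C1qa was lower in PL than in IL. It averaged 14.1 ± 3.90 CPM in PL and 20.4 ± 2.03 CPM in IL (SD, n = 3 each), a log2 fold change of -0.52 with a 95% interval of -0.90 to -0.15 (SE 0.179, edgeR adjusted p = 0.0470). This was 1 of 9 genes called, where 18.7% of all tested genes were called and 8.7% were called lower in PL. Those calls were 1996 higher and 1741 lower in PL, but 1252 and 2767 with library totals and 2075 and 976 with a GC correction of each library. The 2 groups touched, since PL saline 3 (18.2 CPM) lay above IL saline 1 (18.1 CPM), and C1qa was lower in PL in 3 of 3 same-batch pairs. The call was lost without PL saline 1, PL saline 2 or any 1 of the 3 IL saline libraries, and held without PL saline 3 (-0.75, edgeR adjusted p = 0.0123), where P2ry12 (0.66, adjusted p = 0.0289) and C1qb (-0.52, adjusted p = 0.0468) were called too. With 1 library left out, 1842 to 3190 of all genes were called in this comparison.

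Markers of other cells differed between the same libraries. The 3 ependymal markers were called lower in PL (2 of 3 with the GC correction, or without PL saline 2, where Foxj1 was lost) and summed to 1.05 to 2.90 CPM in PL saline and to 9.70 to 13.7 CPM in IL saline. Of 7 astrocyte markers, Gfap was lower in PL (log2 fold change -1.002, edgeR adjusted p = 0.000272) and Slc1a2 was higher (0.34, edgeR adjusted p = 0.0241). The Slc1a2 call was lost without PL saline 1, PL saline 2, IL saline 2 or IL saline 3, or with library totals (0.23). Of 3 oligodendrocyte precursor markers, Cspg4 was lower (-0.65, edgeR adjusted p = 0.00712), a call lost without PL saline 2 or with the GC correction (-0.28, edgeR adjusted p = 0.174). The median of those 3 was -0.49, and -0.076 with the GC correction. Of the 6 oligodendrocyte markers 0 were called, and all 6 values were negative (median -0.32). Of 7 neuron markers 2 were called higher (Snap25 0.88 and Syt1 0.82) and Gad1 was lower (-0.62), a call lost without PL saline 2, PL saline 3 or IL saline 2. Only 3 of the 7 values were positive, and their median was -0.053, or 0.29 with the GC correction. The sum of the 7, to which the most abundant markers add most, was 5693 to 6094 CPM in PL saline and 3856 to 4256 CPM in IL saline. The part of the makeup of the tissue in the regional values of the 9 genes was not tested.

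Tmem119, Csf1r and C1qb also lay lower in all 3 PL saline than in all 3 IL saline libraries, without passing the test. Of all genes, 20.2% did so. Tmem119 had a log2 fold change of -0.46 (95% interval -0.85 to -0.08, edgeR adjusted p = 0.0856). Csf1r had -0.27 (edgeR adjusted p = 0.0852) and C1qb -0.36 (edgeR adjusted p = 0.110). P2ry12 differed the other way, at 0.49 (95% interval 0.08 to 0.89, edgeR adjusted p = 0.0871), and Cx3cr1, Aif1, Trem2 and C1qc had values between -0.16 and 0.03. Thus 5 of 9 had an unadjusted p under 0.05, against 32.6% of all genes.

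For each of the 9 except Cx3cr1, the regional difference with saline had the sign of the median over all genes of like GC. Genes within 1% GC of C1qa had a median log2 fold change of -0.37 between PL and IL with saline, those near Tmem119 -0.35, near C1qb -0.30 and near Csf1r -0.23, while those near P2ry12 had 0.29. After the GC correction 0 of the 9 were called, and C1qa had -0.14 (edgeR adjusted p = 0.606). The median over the 9 moved from -0.16 to 0.033, beside 0.055 over all genes after the correction. Scaling by library totals alone shifted the median of all genes from -0.025 to -0.14 and called 4 of the 9, all lower in PL (C1qa, C1qb, Tmem119 and Csf1r).

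**Figure D4:**
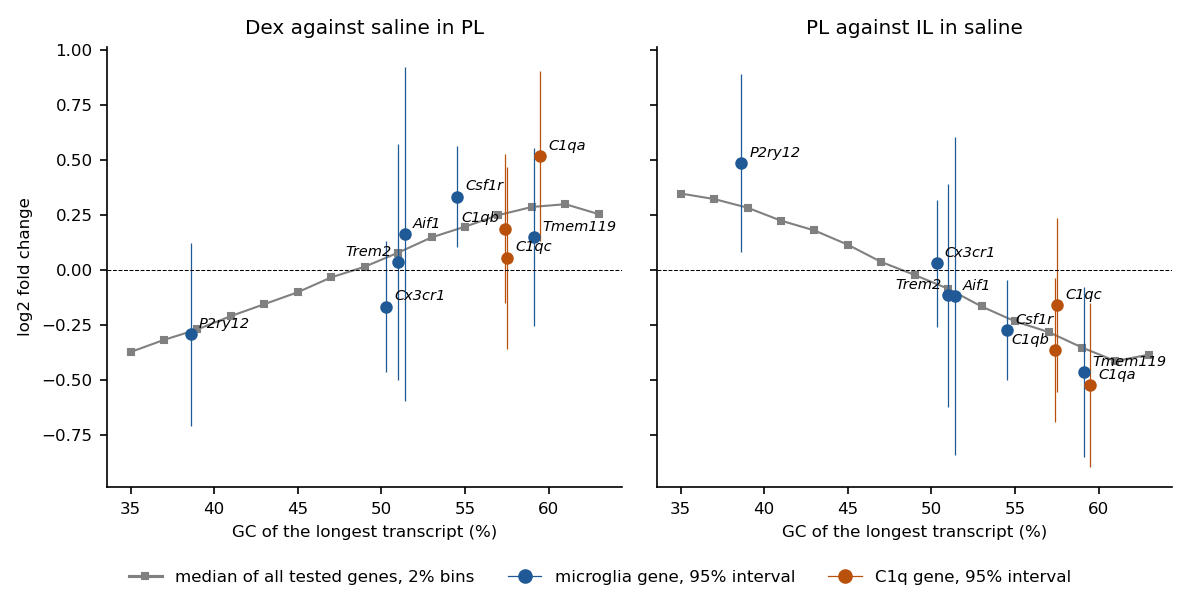
Log2 fold change of each gene (vertical, with 95% interval) against the GC of its longest transcript (horizontal, %), with the median of all tested genes in bins of 2% GC as a grey line. P2ry12 at 38.6% GC and C1qa at 59.5% GC lie at opposite ends, and the grey line passes within the interval of each of the 9 genes in both comparisons.

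With Dex, none of the 9 was called between PL and IL (edgeR, and DESeq2 also called 0), beside 7.34% of all genes, and 1 of 9 had an unadjusted p under 0.05 against 19.8% of all genes. That gene was Trem2, at 5.49 ± 1.01 CPM in PL Dex and 7.97 ± 1.29 CPM in IL Dex (SD, n = 3 each), a log2 fold change of -0.55 with a 95% interval of -1.07 to -0.03 (SE 0.250, edgeR adjusted p = 0.223). Trem2 and C1qb (-0.31, edgeR adjusted p = 0.295) lay lower in all PL Dex than in all IL Dex libraries, as did 10.8% of all genes. The calls over all genes were 761 higher and 708 lower in PL, but 516 and 882 with library totals and 1360 and 714 with the GC correction. Csf1r had 0.01 (95% interval -0.22 to 0.24) and P2ry12 0.01 (95% interval -0.41 to 0.43).

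Averaged over both treatments, C1qb was lower in PL. Its log2 fold change was -0.34 (SE 0.112, edgeR adjusted p = 0.0324), and this was 1 of 9 genes called beside 24.5% of all genes in either direction and 11.8% called lower. The call was lost without PL saline 1, PL saline 2, PL Dex 3, IL Dex 2 or any 1 of the 3 IL saline libraries, with adjusted p up to 0.0947 (without IL Dex 2). With the batch number as a replicate block, 3 of 9 were called, all lower in PL: C1qb (edgeR adjusted p = 0.0373), C1qa (adjusted p = 0.0379) and Tmem119 (adjusted p = 0.0416). The shares of all genes above are those of the main fit, and none is given here for the replicate block. With the GC correction 0 of 9 were called. The calls over all genes were 2541 higher and 2371 lower, but 1600 and 3540 with library totals and 3342 and 1746 with the GC correction.

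The 9 genes did not move as 1 block over the libraries. Pearson correlations of log2 CPM over the 12 libraries, which share batches, depth and base composition and are given as description, ranged over the 36 pairs from -0.727 (P2ry12 with C1qb) to 0.845 (Csf1r with C1qa), with a median of 0.232. The C1q subunits correlated with each other at 0.697 (C1qa with C1qb), 0.675 (C1qa with C1qc) and 0.637 (C1qb with C1qc). P2ry12 was negatively correlated with 6 of the other 8. With group means removed the median over pairs was 0.068. The mean deviation of the 3 C1q genes from their own means, in log2 units, was lowest in PL saline 1 (-0.52) and PL saline 2 (-0.40), the libraries with the steepest negative GC slopes. It was highest in IL Dex 3 (0.29), the library with the steepest positive slope, and IL Dex 2 (0.28), whose slope was 0.045.

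**Figure D5:**
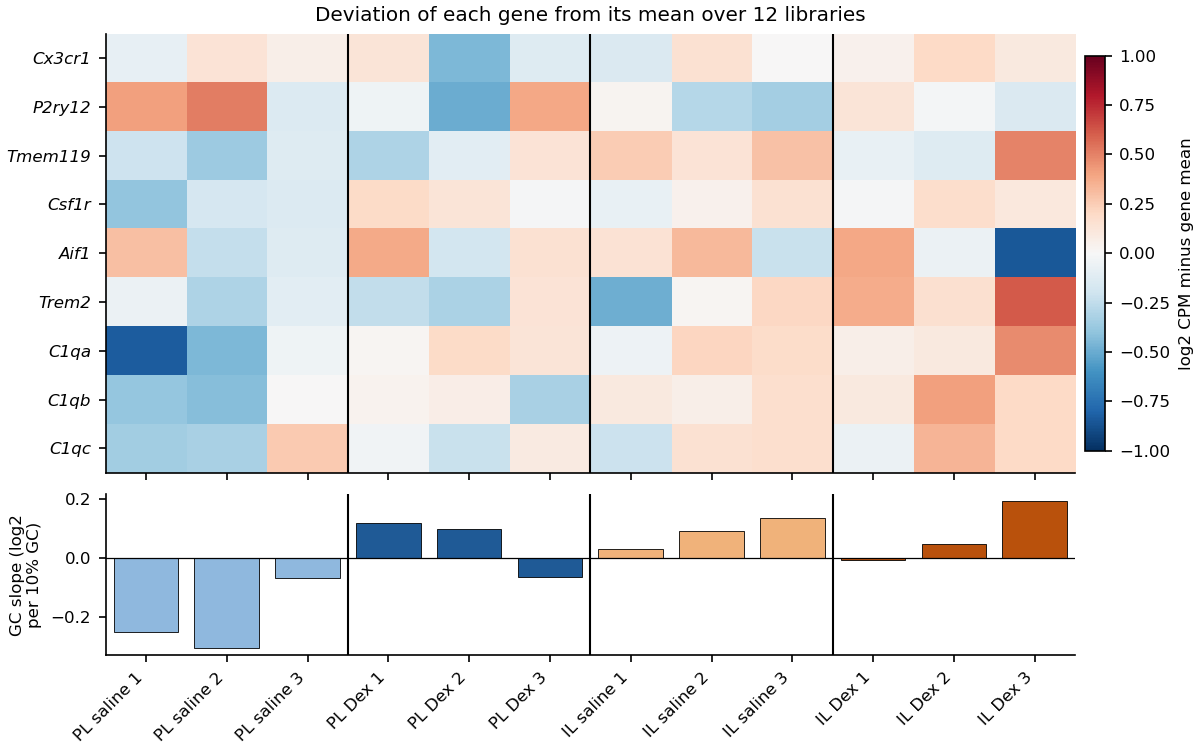
Deviation of log2 CPM of each gene from its mean over the 12 libraries (colour, blue lower and red higher), above the slope of log2 level on GC of each library (bars, log2 per 10% GC). The C1q genes are lowest and P2ry12 highest in PL saline 1 and 2, whose slopes are -0.251 and -0.305.

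The 10 genes whose pattern over the 12 libraries was most like the mean of the 9, among 13909 other genes with a mean of at least 1 CPM, were led by Pdgfra (Pearson r = 0.948), a marker of oligodendrocyte precursors. Tmem223 (0.927), Loxl1 (0.925), Bri3 (0.919), Fbll1 (0.909), Htr5b (0.902), Rps2 (0.901), Ido1 (0.901), Hist1h3h (0.900) and Pgm5 (0.899) followed. The median GC of these 10 was 55.7%, beside 49.8% over the genes compared. Of the 10, 2 were also among the first 10 by Spearman's rho and 1 was among them by Pearson's r with group means removed. Other microglia genes were not generally near: 40 of them had a median r of 0.078, and 20 of the 40 were positive. Laptm5, a lysosomal membrane protein of blood-lineage cells, was the nearest of these (0.880, 25th of 13909), followed by Olfml3 (0.839).

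Genes that act with the 9 were read from lists. Cx3cl1, the fractalkine that Cx3cr1 binds, averaged 451.1 ± 78.6 CPM in PL saline and 437.6 ± 62.5 CPM in IL saline (SD, n = 3 each). Of the Csf1r ligands, Il34 averaged 35.7 ± 10.5 CPM and Csf1 17.6 ± 2.66 CPM in PL saline. Per kb of exon, over 12 libraries, Cx3cl1 averaged 119.1 CPM beside 8.21 for Cx3cr1. Il34 averaged 19.2 and Csf1 3.33 CPM per kb, so Il34 lay above Csf1r (13.2) and Csf1 below it. None of the 3 ligands, 7 tested signalling partners, 7 transcription factors or 27 other microglia genes was called for Dex in PL or in IL. The medians of these lists for Dex in PL were 0.21, 0.079, -0.013 and -0.023, beside -0.0025 for all genes. With the GC correction those of the ligands and the partners were 0.058 and -0.071, beside 0.0098 for all genes. Tyrobp, the adaptor of Trem2, averaged 3.44 ± 0.825 CPM with saline and 3.68 ± 0.676 CPM with Dex in PL. Between PL and IL, Sall1, a transcription factor of microglial identity that other brain cells can express, was lower in PL with Dex (log2 fold change -0.71, SE 0.196, edgeR adjusted p = 0.0303), a call lost without PL Dex 1, PL Dex 2 or IL Dex 2, with only the Dex libraries in the fit, or with GC correction and replicate block together (edgeR adjusted p = 0.0534).

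Of 28 genes of the complement cascade and its receptors, 12 were tested. C3, C2, C1ra and C1s1, which act with or after C1q, averaged at most 1.07 CPM in any group (C1ra in PL Dex) and did not pass the filter. None of the 12 was called for Dex in PL or IL, and 1 of 12 was called between the regions with saline. This was C4b, a target of the C1 complex, at 10.0, 10.2 and 7.004 CPM in PL saline and 18.2, 28.2 and 19.9 CPM in IL saline, with no overlap. C4b was lower in PL with a log2 fold change of -1.29 (SE 0.242, edgeR adjusted p = 0.00136), and of -1.01 (adjusted p = 0.00669) with the GC correction. Because C4b and C4a are near-identical copies, the split of reads between them is uncertain. Of 21 tested complement regulators none was called for Dex in PL or IL, and 3 were higher and 1 lower in PL than IL with saline. Cd55, which dissociates complement convertases, measured 8.20, 7.96 and 8.94 CPM in PL saline and 2.61, 3.74 and 3.27 CPM in IL saline (log2 fold change 1.37, SE 0.277, edgeR adjusted p = 0.00208). Nptx1, a neuronal pentraxin (0.48), and Cr1l, a membrane regulator of C3 activation (0.38), were the other two that were higher, and Sez6 (-0.71) was lower. The Cr1l call was lost with the GC correction (0.14, edgeR adjusted p = 0.421). It was also not stable to leaving out 1 library, where its edgeR adjusted p reached 0.148.

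Genes of microglial activation and inflammation gave no call with Dex: 0 of 15 tested activation genes and 0 of 11 tested inflammatory mediators passed in PL or in IL. Between the regions with saline, 1 of the 11 mediators was called higher in PL and 1 lower. Lpl, a lipase of lipid-handling microglia that other brain cells also make, was lower in PL than IL with saline (log2 fold change -0.68, SE 0.211, edgeR adjusted p = 0.0292) and with Dex (-1.0, SE 0.219, edgeR adjusted p = 0.00646). The call with saline was lost without any 1 of PL saline 2, PL saline 3, IL saline 1 or IL saline 2, and the call with Dex held without each Dex library in turn. Il1b and Tnf averaged at most 0.304 CPM in any group (Il1b in IL saline) and did not pass the filter. Among 10 tested transmitter and purine receptors that microglia can carry, 0 were called for Dex in either region. Adra2a, which encodes a receptor of the drug and is also made by neurons and astrocytes, was lower in PL than IL with saline, at 12.4 ± 2.64 against 30.5 ± 6.88 CPM (SD, n = 3 each, log2 fold change -1.32, SE 0.243, edgeR adjusted p = 0.00149). Adra1a, of the same list, was higher in PL with saline (log2 fold change 0.80, SE 0.132, edgeR adjusted p = 0.000407). The list thus gave 1 call higher and 1 lower in that comparison. Border macrophage markers summed to 14.1 to 24.5 CPM per library, and Cd163, the one called between regions with saline, was lower in PL (log2 fold change -1.01, edgeR adjusted p = 0.0275), a call lost without any 1 of PL saline 2, PL saline 3 or the 3 IL saline libraries. Cd163 was also lower in PL with Dex (-1.42, SE 0.311, edgeR adjusted p = 0.00645). The other 3 tested markers had values above 0 in both comparisons and were not called: Lyve1 had 1.07 with saline and 0.93 with Dex, F13a1 0.46 and 0.094, and Mrc1 0.38 and 0.57. The median of the 4 tested was 0.42 with saline and 0.33 with Dex. Of the 7 border macrophage markers none was at 0 in every library, and their sum was 16.1 to 18.2 CPM in PL saline and 15.95 to 18.8 CPM in IL saline. The part of border macrophages in the regional difference of the C1q genes, which such cells also express, was not tested.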

How the data were processed

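PolyA RNA-seq of 12 libraries was used. The deposited values are raw, whole-number counts for each gene. Per the file headers, the authors counted paired-end reads over exons, without a strand option, using featureCounts 2.0.1 and the Ensembl GRCm38 annotation (release 98). The submitters' processing notes name bcl2fastq, Trim Galore, HISAT2, SAMtools 1.8 and featureCounts, and the build mm39. Coordinates in the table were GRCm38: 54862 of 55154 genes with a symbol had the coordinates of GENCODE M21. A further 12 count columns matched no labelled sample and were not used.

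Genes with low counts were removed with filterByExpr. The counts were scaled by TMM (factors 0.935 to 1.05) and fitted for all 20015 genes and 12 libraries with the robust quasi-likelihood test of edgeR 4.0.16 in R 4.3.3, with 1 mean per group (8 residual degrees of freedom). Tests were two-sided, with Benjamini-Hochberg adjustment over all genes and a threshold of 0.05. Intervals are 95% intervals of the fitted log2 fold change. The procedure was tested on simulated data. Levels between genes were compared per kb of the exon length in the table. GC is that of the longest GENCODE M21 transcript (19992 of the tested genes), and the GC correction subtracted a spline with 5 degrees of freedom per library. Genes of like GC are those within 1% GC.

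The batch label equals the sample number, so numbers were taken to pair libraries. Same-numbered libraries of IL saline and IL Dex deviated together (r = 0.299 to 0.347), those of PL saline and PL Dex little (0.014 to 0.126). Between PL and IL, same-numbered libraries gave 0.031 to 0.213 with saline and -0.098 to 0.039 with Dex. Those of unlike number gave -0.13 to 0.063 with saline and -0.074 to 0.106 with Dex. Alternatives were DESeq2 1.42.0, RLE size factors, library totals, no filter, the batch as a replicate block, GC correction, a fit of only the groups compared, and leaving out each library. No pair of libraries within a group differed by sampling noise alone, and pairs across groups were not compared in this way.

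All 9 genes are described in each comparison. From related lists the genes past the threshold could be named, at most 4 per list and comparison by smallest p, with ligands, partners and complement genes of at least 5 CPM. Tyrobp, the low complement genes, Il1b, Tnf, Laptm5 and Olfml3 fall outside that rule and were named after their values were seen. The members and lists were chosen with earlier results of these data known.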

Additional observations from a re-analysis of the deposited data

How the results depend on the processing

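No call of the 9 genes for Dex was made in PL, in IL, in the interaction or on average under DESeq2, RLE size factors, library totals, no filter, the replicate block, GC correction or a fit of only the groups compared where that could be run. Beyond the values below, those of the 9 genes and of the related genes kept their direction and their side of the threshold under DESeq2 and RLE size factors, and the replicate block changed no other count of the 9 than the one given here. Depth limits Aif1 most, and its adjusted p is missing from DESeq2 for Dex in PL. With 3 libraries a group, leaving 1 out leaves a pair whose spread is taken as that of all groups. The cause of each change below was not tested, except that leaving out a library leaves fewer samples.

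Over all genes, Dex in PL called 4 in the main fit, 123 by DESeq2, 193 without the filter, 0 by RLE size factors, by library totals or with only PL libraries, 1 with GC correction, 2 with GC correction and replicate block, and 0 to 1484 with a library left out (1484 without PL Dex 3). Of the 9 genes, 0 to 1 were called with a library left out. Dex in IL called 3 and the interaction 4 without the filter, and the interaction called 0 to 144 with a library left out. Dex averaged over regions called 1, but 8 by DESeq2, 31 without the filter, 0 with GC correction, 2 with GC correction and replicate block, and 0 to 11 with a library left out. PL against IL with Dex called 1469, but 2689 with GC correction and replicate block, and 783 to 1728 with a library left out. With saline it called 3737, and 1842 to 3190 with a library left out. In that comparison the 9 genes gave 1 call, but 4 with library totals, 2 without the filter, 3 with only saline libraries, 0 with GC correction alone or with the replicate block, and 0 to 3 with a library left out. For PL against IL averaged they gave 1 call, but 4 with library totals, 3 with the replicate block, 0 with GC correction alone or with the replicate block, and 0 to 2 with a library left out. The shares of all genes given earlier are from the main fit and are not the background of these other counts of the 9.

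Some log2 fold changes, none past the threshold, changed sign. For Dex in PL, GC correction alone and with the replicate block gave Tmem119 -0.084 and -0.091, Trem2 -0.030 and -0.039, C1qb -0.032 and -0.034, and C1qc -0.15 and -0.14. In the interaction they gave C1qb -0.19 and -0.19, and GC correction alone gave Tmem119 -0.0083. For PL against IL with saline they gave Aif1 0.042 and 0.032, Trem2 0.033 and 0.045, and C1qc 0.17 and 0.17, and with Dex C1qa 0.0090 and 0.017. Library totals gave Cx3cr1 -0.084 with saline, and P2ry12 -0.079 and Csf1r -0.070 with Dex, where a fit of only the Dex groups gave P2ry12 -0.00013. With a library left out, Dex in PL ranged from -0.12 to 0.13 for Trem2 and from -0.048 to 0.30 for C1qc. Dex in IL then ranged from -0.34 to 0.033 for Tmem119, -0.0047 to 0.11 for Csf1r, -0.59 to 0.083 for Aif1 and -0.044 to 0.19 for C1qa. The interaction ranged from -0.027 to 0.22 for C1qb and -0.17 to 0.18 for C1qc. PL against IL with saline ranged from -0.039 to 0.11 for Cx3cr1, -0.30 to 0.024 for Aif1 and -0.28 to 0.047 for Trem2. With Dex it ranged from -0.23 to 0.22 for P2ry12, -0.35 to 0.023 for Tmem119, -0.037 to 0.069 for Csf1r, -0.038 to 0.64 for Aif1 and -0.19 to 0.039 for C1qa.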
